A study of Rattus norvegicus with 9 samples.

Results

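Sod1, Sod2 and Cat, which encode the rat superoxide dismutases of the cytosol and of the mitochondrion and the peroxisomal enzyme catalase, were followed through 9 transcriptomes of cultured mesangial cells. These 3 genes, out of 30560 in the deposited table, were chosen by identifier: ENSRNOG00000002115 for Sod1, ENSRNOG00000019048 for Sod2 and ENSRNOG00000008364 for Cat. The names came with that list of identifiers, since the deposited tables pair identifiers with no names. The cells were HBZY-1, an established rat line of glomerular mesangial cells, which are the contractile cells that hold the capillary loops of the kidney's filter together. The 3 groups, with 3 biological replicates each, were control cells, the LPS-induced model, and cells under a high-dose water extract made from lyophilized powder of the leech Poecilobdella manillensis. LPS (lipopolysaccharide), from the outer membrane of Gram-negative bacteria, is a common trigger of inflammatory signalling in cultured cells. The labels give no dose or exposure time and do not say whether the extract group also received LPS or whether the control group received a vehicle, so the extract group is described by its own label. All groups come from the same line, whose expression of mesangial marker genes was not analysed here.

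Superoxide is a reactive by-product of mitochondrial respiration and a product of NADPH oxidases. Superoxide dismutases turn it into oxygen and hydrogen peroxide. Sod1 uses copper and zinc and is found mainly in the cytosol. Sod2 uses manganese and sits in the mitochondrial matrix, where most respiratory superoxide is released, and is a well-known target of inflammatory signalling through NF-kB. Catalase breaks hydrogen peroxide down into water and oxygen without consuming a reducing cofactor.

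The bases just upstream of the start sites are shown for the 3 genes, whose enzymes handle superoxide or the hydrogen peroxide made from it. Whether these bases bear on the levels or changes of the genes was not tested. Each line gives the 250 bases before the start site, 5′ to 3′ on the gene's strand, from RefSeq on the assembly GRCr8, which may not be the build behind the abundance tables. The stretch for Sod1 is chr11:42942573-42942822 on the plus strand, that for Sod2 is chr1:50050169-50050418 on the minus strand, and that for Cat is chr3:110329527-110329776 on the minus strand. Capitals mark matches, on either strand, to any of 6 motifs: the GC box (GGGCGG), the CCAAT box (CCAAT), the TATA box (TATAAA), the AP-1 site (TGANTCA), the core of the antioxidant response element (TGACNNNGC) and the NF-kB site, searched by its degenerate consensus.
Sod1: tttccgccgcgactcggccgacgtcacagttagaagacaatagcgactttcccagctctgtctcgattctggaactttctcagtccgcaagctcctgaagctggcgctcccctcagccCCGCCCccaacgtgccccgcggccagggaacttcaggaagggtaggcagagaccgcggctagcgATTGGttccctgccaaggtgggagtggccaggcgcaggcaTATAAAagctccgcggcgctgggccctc
Sod2: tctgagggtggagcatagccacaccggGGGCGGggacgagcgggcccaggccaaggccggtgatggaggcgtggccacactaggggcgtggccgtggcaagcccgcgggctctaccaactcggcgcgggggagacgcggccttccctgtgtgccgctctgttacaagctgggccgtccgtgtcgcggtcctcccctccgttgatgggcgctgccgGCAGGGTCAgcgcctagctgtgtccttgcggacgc
Cat: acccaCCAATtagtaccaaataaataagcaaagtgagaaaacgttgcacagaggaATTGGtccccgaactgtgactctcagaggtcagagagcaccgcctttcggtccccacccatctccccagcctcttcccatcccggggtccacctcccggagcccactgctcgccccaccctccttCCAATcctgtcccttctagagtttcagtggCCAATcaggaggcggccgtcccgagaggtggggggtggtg

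The Sod1 stretch held a TATA box 28 bases before the start, a CCAAT box on the opposite strand and a GC box on the opposite strand. The Sod2 stretch held 1 GC box and 1 match to the antioxidant response element core, and no TATA or CCAAT box. The Cat stretch held 4 CCAAT boxes and none of the other motifs. None of the matches overlapped another. GC content was 63.2% for Sod1, 71.6% for Sod2 and 58.8% for Cat, against a median of 51.2% over 33465 RefSeq promoters. Among those promoters, 30.5% held a GC box, 34% a CCAAT box, 12.9% a TATA box and 10.1% the antioxidant response element core, so each kind of match found is held by many promoters. No NF-kB site or AP-1 site was found in the 3 stretches, against 3.54% and 6.34% of all promoters, which says only that these letters are not in these windows.

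Levels are the authors' TPM, in which a gene's reads are divided by its length and scaled so that each library sums to 1000000. TPM can therefore be compared between genes, but it does not hold the number of reads, so the depth behind each value is unknown and no counting interval is given. Each library had 15479 to 15837 genes above 0 TPM. In bulk RNA, a lower share of cells expressing a gene and less RNA per cell cannot be told apart. All 3 genes were among the 12192 whose mean over the libraries reached 1 TPM, which were tested. None of them shared its values in every library with another gene.

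Sod2, the mitochondrial enzyme, moved from the lowest of the 3 transcripts in control cells to the highest in LPS cells. Its level was 70.7, 73.1 and 73.7 TPM in the control libraries (72.5 ± 1.6, mean ± SD, n = 3). In the LPS libraries it was 651.6, 699.8 and 677.6 TPM (676.3 ± 24.1, n = 3). In the extract libraries it was 463.1, 432.1 and 393.7 TPM (429.6 ± 34.8, n = 3). The 3 groups did not overlap: every LPS library was above every extract library, and every extract library above every control library. Among the tested genes of each library, Sod2 ranked between 2049 and 2147 in control, between 198 and 211 in LPS and between 285 and 331 in extract libraries.

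Sod1, the cytosolic enzyme, differed far less between groups and in another order. It stood at 326.9, 343.9 and 357.3 TPM in control libraries (342.7 ± 15.2, n = 3). The LPS libraries gave 309.9, 274.4 and 299.4 TPM (294.6 ± 18.2, n = 3). The extract libraries gave 413.5, 406.6 and 397.1 TPM (405.7 ± 8.2, n = 3). Here too the groups did not overlap in deposited TPM, with the LPS libraries lowest, the control libraries between and the extract libraries highest. Of all tested genes, 50.1% had no overlap for LPS versus control, 65.1% for extract versus LPS and 61.1% for extract versus control. The separation of LPS from control depended on the scaling. Divided by their median-of-ratios factors, 0.973 and 1.037, LPS replicate 1 lies above control replicate 1. The rank of Sod1 was 381 to 413 in control libraries, 420 to 466 in LPS libraries and 323 to 328 in extract libraries.

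Cat, whose enzyme breaks down hydrogen peroxide, the product of both dismutases, had values that overlapped between all groups. The control libraries stood at 102.8, 125.3 and 95.4 TPM (107.8 ± 15.6, n = 3). The LPS libraries stood at 79.7, 99.5 and 92.2 TPM (90.5 ± 10.03, n = 3). The extract libraries stood at 99.1, 100.5 and 95.4 TPM (98.3 ± 2.7, n = 3). The spread was wide in control and LPS cells, where control replicate 2 was the highest of the 9 libraries and LPS replicate 1 the lowest. The coefficient of variation of Cat was 14.5% in control and 11.1% in LPS cells, against a median of 5.17% and 5.8% over all tested genes. In extract cells it was 2.7%, against a median of 4.67%. The other two genes varied less in most groups. In the order control, LPS, extract, the coefficient was 2.14%, 3.57% and 8.09% for Sod2 and 4.45%, 6.19% and 2.03% for Sod1.

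**Figure D1:**
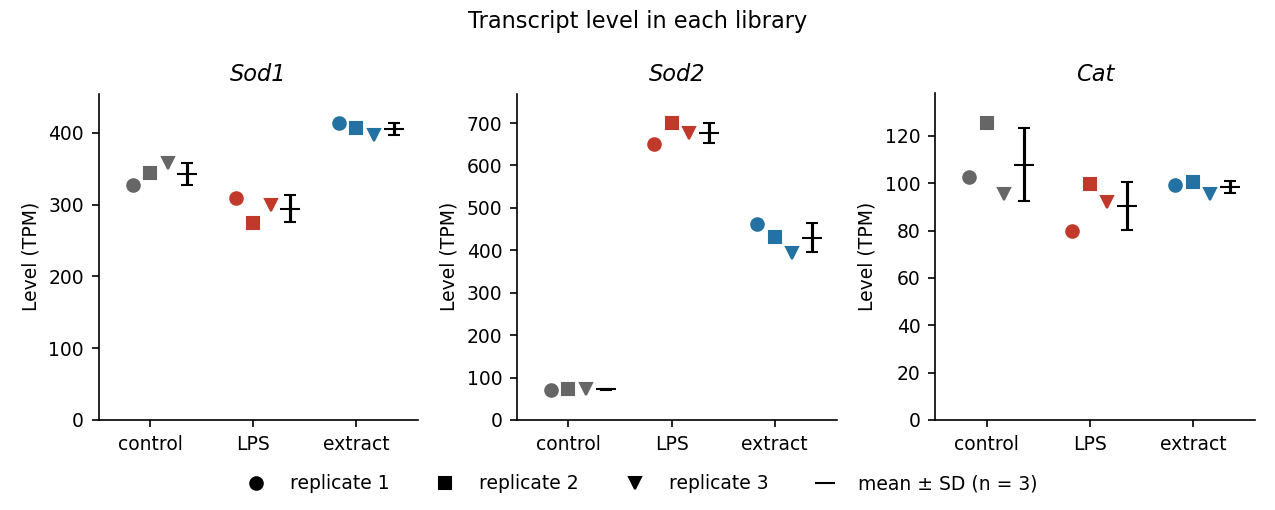
Level of Sod1, Sod2 and Cat in TPM (vertical axes, linear and starting at 0, with a separate scale per gene) in the control, LPS and extract groups. Each marker is a library and the bar beside it the mean ± SD of 3 libraries. Sod2 lies at 70.7 to 73.7 TPM in the control group, 651.6 to 699.8 TPM in the LPS group and 393.7 to 463.1 TPM in the extract group, while Cat overlaps between all groups.

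LPS versus control asked how the inflammatory model differed from control cells, and 2 of the 3 genes were called changed. Sod2 rose 9.21-fold (95% CI 8.46 to 10.03) and Sod1 fell to 0.859-fold (95% CI 0.796 to 0.927). The dismutases thus changed in opposite directions, but the call of Sod1 depended on the scaling. Changes were tested on log2(TPM + 1) with limma, which pools the spread over the 9 libraries, with Benjamini-Hochberg adjustment over all 12192 genes. Fold changes are on this scale, and at these levels the added 1 TPM changes them little. The log2 fold change of Sod2 was 3.20 ± 0.055 (SE, limma adjusted p = 4.38e-10), higher in 3 of 3 LPS libraries than in any control library. A share of 2 in 3 genes is read against 40.7% of all tested genes called in either direction and 50.1% without overlap. Among all tested genes, 9.79% were called higher in this comparison and 12.5% had higher LPS values without overlap. The share called higher was 17.4% after rescaling by the median of ratios and 15.9% after quantile normalization. A higher fold change than that of Sod2 was found for 24 genes, and a smaller p for 7.

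The fall of Sod1 with LPS was small and depended on how the libraries were scaled. Its log2 fold change was -0.22 ± 0.049 (SE, limma adjusted p = 0.00605), in a comparison where 30.9% of all tested genes were called lower and 37.6% had lower LPS values without overlap. The median log2 fold change of all tested genes was -0.08. After the libraries were rescaled by the median of ratios, which brings that median to 0.00, 18.6% of genes were called lower, and Sod1 stood at -0.12 ± 0.044 and no longer passed (limma adjusted p = 0.0538). With quantile normalization, which called 19.7% lower, it was -0.16 and passed (limma adjusted p = 0.0162).

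With LPS, Cat stood at -0.25 ± 0.10 against control on the log2 scale and did not pass the threshold (limma adjusted p = 0.0812). Its 95% interval, from -0.48 to -0.02 before adjustment for the number of genes, spans anything from a fall to 0.718-fold to nearly no difference. The value moved with single libraries of both groups. Without control replicate 3, the lowest control library, it was -0.33 and passed (limma adjusted p = 0.0435), and without control replicate 2, the highest, it was -0.14 (limma adjusted p = 0.245). Without LPS replicate 1, the lowest LPS library, it was -0.16 (limma adjusted p = 0.252). The scaling moved the value too, in the fit of all libraries. It was -0.15 after the median of ratios (limma adjusted p = 0.298) and -0.18 after quantile normalization (limma adjusted p = 0.221). Over the 18 alternatives run the adjusted p of Cat lay between 0.0391 and 0.298. A change of Cat with LPS was therefore not resolved with these replicates.

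Extract versus LPS asked how the extract group differed from the model. Sod1 and Sod2, 2 of the 3 genes, were called, where 59.4% of all tested genes were called and 65.1% had values without overlap. The dismutases again differed in opposite directions, each the other way round from LPS versus control, with which this comparison shares the LPS libraries. In LPS versus control the fall of Sod1 did not pass after median-of-ratios scaling (limma adjusted p = 0.0538). Sod2 was lower in extract cells, at 0.635-fold (95% CI 0.583 to 0.691), with a log2 value of -0.66 ± 0.055 (limma adjusted p = 6.46e-06). Sod1 was higher, at 1.38-fold (95% CI 1.28 to 1.49), with a log2 value of 0.46 ± 0.049 (limma adjusted p = 3.06e-05). Each call falls in a comparison where calls were frequent, with 25% of tested genes lower and 34.4% higher, and non-overlapping values in 27.8% and 37.3%. A larger absolute fold change was found in 13.1% of tested genes for Sod2 and in 23.4% for Sod1. A lower fold change than that of Sod2 was found for 647 genes, and a higher one than that of Sod1 for 1681. Cat did not pass, at 0.12 ± 0.10 (limma adjusted p = 0.322), with a 95% interval from -0.10 to 0.35. It was 0.04 without LPS replicate 1 and 0.20 without LPS replicate 2, and passed in neither case (limma adjusted p = 0.775 and 0.165).

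Extract versus control asked how far extract cells stood from control cells, and again 2 of the 3 genes were called, against 51.7% of all tested genes called and 61.1% without overlap. Both dismutases were higher in extract cells, Sod2 by 5.85-fold (95% CI 5.37 to 6.37) and Sod1 by 1.18-fold (95% CI 1.097 to 1.28). The log2 fold change of Sod2 was 2.55 ± 0.055 (limma adjusted p = 2.32e-09), and 19 of the 12192 genes had a higher one. For Sod1 it was 0.24 ± 0.049 (limma adjusted p = 0.00239), with a larger absolute change in 41.7% of tested genes. In this comparison 22.3% of tested genes were called higher and 26.2% were higher without overlap. Cat did not pass, at -0.12 ± 0.10 (limma adjusted p = 0.343), with a 95% interval from -0.35 to 0.11. It was -0.01 without control replicate 2 and -0.21 without control replicate 3, and passed in neither case (limma adjusted p = 0.933 and 0.146). In mean TPM, Sod2 in extract cells stood 357.1 above control and 246.7 below LPS cells, so it lay between these groups. Sod1 in extract cells stood 62.98 TPM above control, outside the range between control and LPS.

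**Figure D2:**
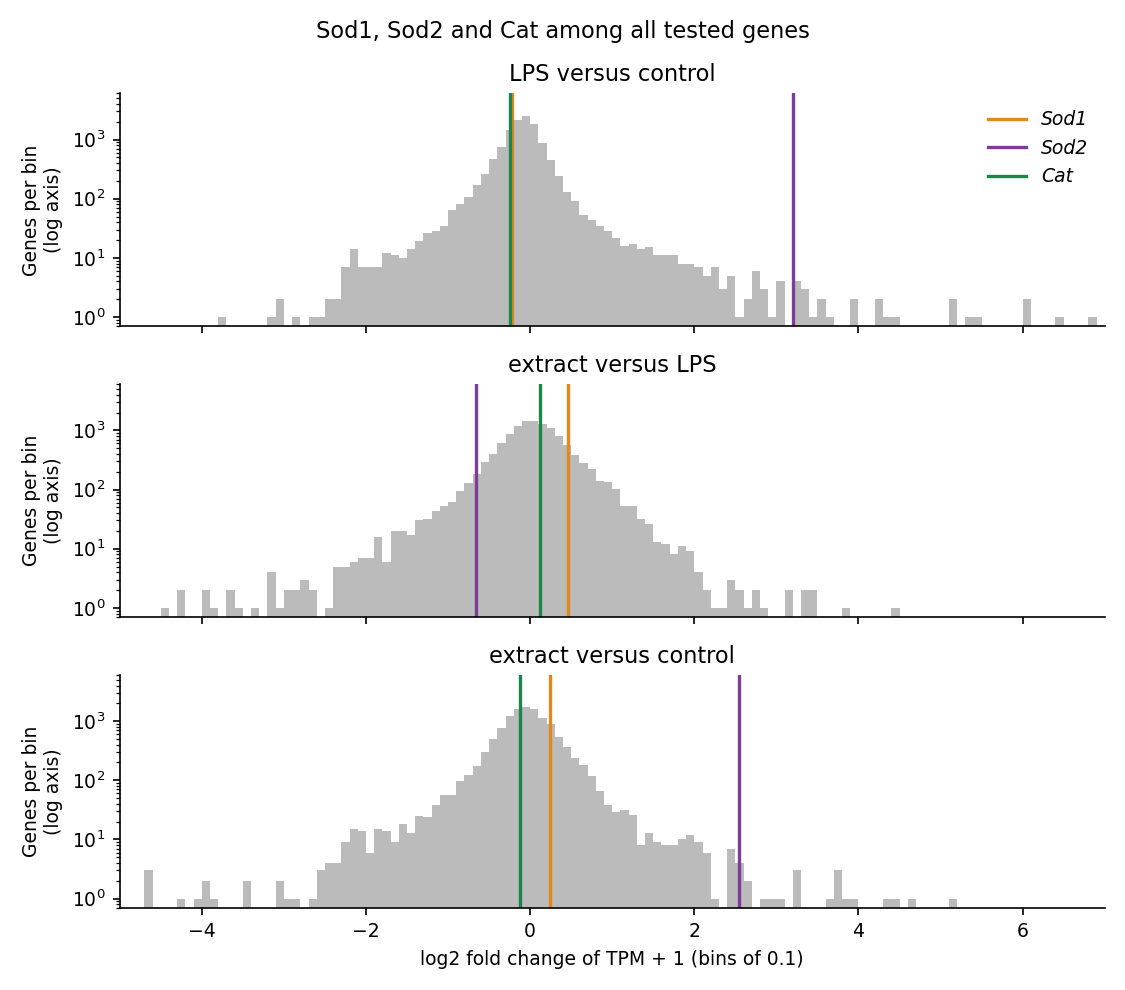
Number of tested genes (vertical axes, log scale) by log2 fold change of TPM + 1 (horizontal axis, bins of 0.1) in each comparison, with lines for Sod1, Sod2 and Cat. Sod2 lies in the far upper tail against control, at 3.20 for LPS and 2.55 for extract cells. In extract versus LPS it lies at -0.66, toward the lower tail, with 647 genes lower. Sod1 and Cat lie between -0.25 and 0.46 in all 3 panels.

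**Figure D3:**
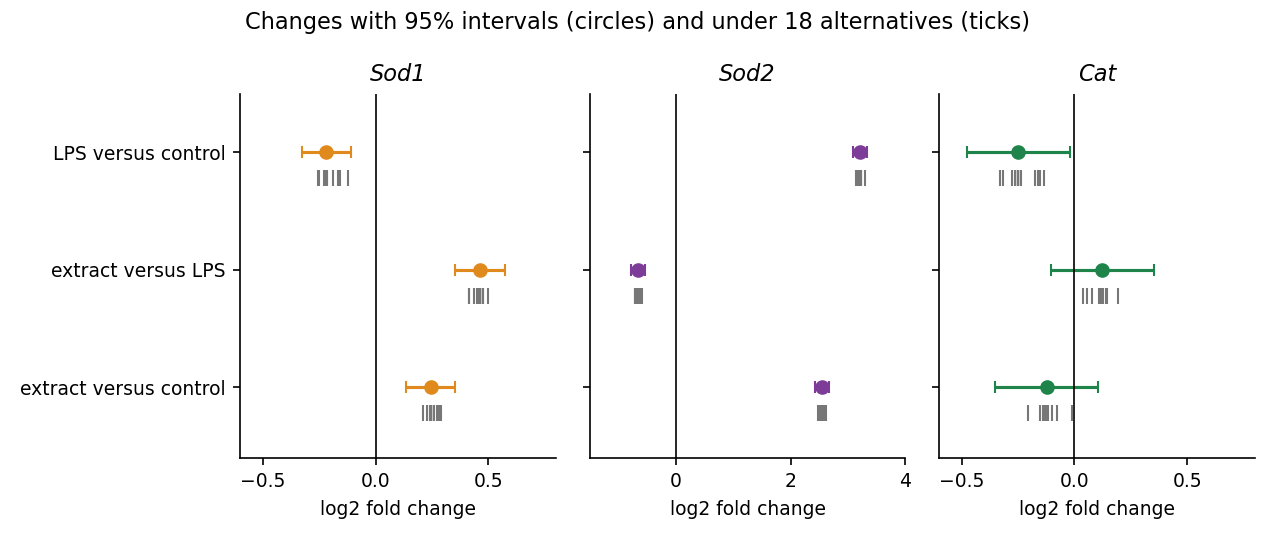
The log2 fold change (horizontal axes, a wider scale for Sod2) of each gene in each comparison, as circles with 95% confidence intervals from limma, and its value under 18 alternatives as ticks beneath. All intervals of Sod1 and Sod2 lie clear of 0, those of Cat reach or approach it, and no alternative moved a value across 0.

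The order of the levels differed between the groups. In all 3 control libraries Sod1 was highest, then Cat, then Sod2. In all 3 LPS libraries Sod2 was highest, then Sod1, then Cat. In extract libraries the dismutases were at like levels, with Sod2 between 393.7 and 463.1 TPM and Sod1 between 397.1 and 413.5 TPM, so their order there was within the spread between libraries, and Cat was lowest.

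The ratio of 2 transcripts within a library is the same whatever single factor that library is divided by. The ratio of Sod2 to Sod1 TPM was 0.216, 0.213 and 0.206 in control, 2.1, 2.55 and 2.26 in LPS and 1.120, 1.06 and 0.992 in extract libraries. Mitochondrial dismutase transcripts were thus a minority of the pair in control cells, outnumbered the cytosolic ones in LPS cells and were about level with them in extract cells. The log2 ratio was higher by 3.44 ± 0.084 (SE) in LPS than in control cells and by 2.32 ± 0.055 in extract than in control cells. Extract minus LPS cells gave -1.121 ± 0.096. None of the groups overlapped in this ratio. Each difference had an exact two-sided permutation p = 0.1, which is the smallest that 3 libraries against 3 allow, so this test cannot reach 0.05.

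Sod2 also shifted against Cat, and less so Cat against Sod1. The ratio of Sod2 to Cat was 0.583 to 0.772 in control libraries, 7.04 to 8.18 in LPS libraries and 4.13 to 4.67 in extract libraries, again without overlap. Cat to Sod1 lay between 0.267 and 0.364 in control and between 0.257 and 0.363 in LPS libraries, which overlapped (exact permutation p = 0.7). In extract libraries it was lower, at 0.240 to 0.247, and differed in log2 ratio by -0.34 ± 0.14 from LPS and by -0.37 ± 0.13 from control (exact permutation p = 0.1 for each). Over the 9 ratio comparisons, which share members and libraries, all but Cat to Sod1 in LPS versus control were without overlap. None of these comparisons could pass adjustment with groups this small. How often ratios of other gene pairs lack overlap was not measured, so this separation is not read as particular to these genes. Of single tested genes, 50.1% lacked overlap for LPS versus control, 65.1% for extract versus LPS and 61.1% for extract versus control.

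As a share of the 3 genes' summed TPM, Sod2 took 13.9% ± 0.35 in control cells, 63.7% ± 1.3 in LPS cells and 46.0% ± 1.5 in extract cells (SD, n = 3). In the same order of groups, Sod1 took 65.5% ± 2.2, 27.8% ± 2.1 and 43.5% ± 1.2, and Cat took 20.6% ± 2.5, 8.51% ± 0.81 and 10.5% ± 0.33. The drop in the share of Cat accompanied a larger sum, not a called change of its own level. The sum was 523.1 ± 21.1 TPM in control cells, 1061 ± 17.6 TPM in LPS cells and 933.7 ± 45.0 in extract cells. Of the summed TPM of Sod1 and Sod2 alone, Sod2 made up 17.5% ± 0.35 in control cells, 69.7% ± 2.0 in LPS cells and 51.4% ± 1.5 in extract cells.

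**Figure D4:**
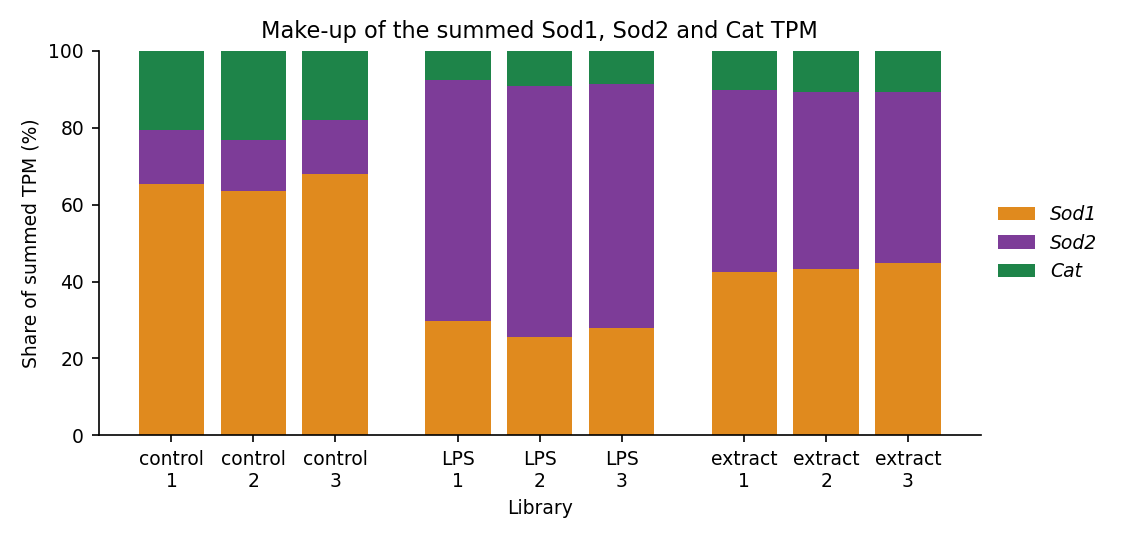
Share of the summed TPM of Sod1, Sod2 and Cat taken by each gene (vertical axis, percent) in each of the 9 libraries (horizontal axis). Sod2 grows from 13.5% to 14.1% of the sum in control libraries to 62.6% to 65.2% in LPS libraries, and takes 44.4% to 47.5% in extract libraries.

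At the level of transcripts, the tables do not state which transcript belongs to which gene, so consecutive transcripts whose TPM summed to the gene's in all 9 libraries were taken. The level of Sod2 was carried whole by ENSRNOT00000025794 and that of Cat by ENSRNOT00000011230, so their transcript values are those of the gene. Sod1 had a main transcript, ENSRNOT00000002885, with 97.2% to 98.4% of its TPM, and a minor one, ENSRNOT00000097395, with 1.63% to 2.79%. The main Sod1 transcript changed as the gene did, with p-values adjusted over 19383 transcripts. Its log2 difference was -0.22 ± 0.049 between LPS and control (limma adjusted p = 0.0133). Between extract and LPS it was 0.46 ± 0.049 (limma adjusted p = 0.000121), and between extract and control 0.24 ± 0.049 (limma adjusted p = 0.00568). The minor transcript stood between 4.46 and 8.97 TPM over the 9 libraries and passed in no comparison of all 9 libraries (limma adjusted p = 0.596, 0.191 and 0.506). Without LPS replicate 3, which had its highest LPS value, it passed in extract versus LPS, with a log2 difference of 0.55 (limma adjusted p = 0.0195). Of the 4 transcripts, 2 were called in each comparison, those of Sod2 and the main one of Sod1, where 23%, 39.1% and 32% of all tested transcripts were called.

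Genes whose pattern over the 9 libraries was most like that of each gene were ranked by Pearson's r on log2(TPM + 1). The 9 points share 3 groups, and r mostly reflects the group means, so it is given as a description. For Sod2 the 3 most similar genes had r between 0.998 and 0.9998. The first, ENSRNOG00000008525, stood at 0.0267 ± 0.046 TPM in control cells, 44.1 ± 1.8 TPM in LPS cells and 20.6 ± 2.2 in extract cells (SD, n = 3), the same order as Sod2 from a level near 0. For Sod1 the 3 highest r were 0.988 to 0.990, and the first, ENSRNOG00000010940, stood at 28.4 ± 0.76, 24.2 ± 1.2 and 33.6 ± 1.4 TPM. For Cat, whose groups overlapped, the highest r was 0.953.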

How the data were processed

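RNA from 9 HBZY-1 cultures was sequenced, 3 per group. The authors deposited TPM per gene and per transcript, rounded to 2 decimals. Per the submitters' processing notes, fastp, HISAT2 2.1.0 and RSEM 1.3.3 were used, without roles or settings. The sources used here do not give the build, annotation, strandedness or the division of reads between near-identical copies. Columns were assigned by the code that opens each title.

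Genes whose mean reached 1 TPM were fitted with limma 3.58.1 in R 4.3.3 on log2(TPM + 1), with a mean per group, a mean-variance trend and 6 residual degrees of freedom. Tests are two-sided, adjusted by Benjamini-Hochberg over all tested genes, with a threshold of 0.05. Ratios were tested by exact permutation (scipy 1.17.1). On data simulated for LPS versus control (12192 genes), recovery was 79.1% for 67 genes with a log2 change of 0.5, 91% for 67 genes with 1 and 95.5% for 66 genes with 2, beside 10 false calls. Only these genes were changed, with independent noise and no shift between libraries, whereas 40.7% of genes were called in the data. Every log2 change of Sod1 and Cat was smaller than 0.5, so recovery at their size was not measured. The limma p-values set each difference against the spread between these replicates, and whether they were cultured on separate days is not stated. In limma this spread is also drawn toward that of genes of like level. The intervals therefore rest on more than the 6 residual degrees of freedom.

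The members and lists were chosen with earlier results of these data known. The genes named are the 3 members and, by rule, at most 2 identifiers of similar pattern. Giving these for Sod1 and Sod2, not Cat, was chosen after seeing the values. The lists of other antioxidant, peroxisomal and cell type genes were not analysed here, because 0 identifiers of the reference table (47357 genes) could be matched to the files' identifiers. Transcripts were linked to genes within 0.006 TPM per rounded value. Alternatives tried: pseudocounts of 0.1 and 5, filters of 0 and 5 TPM, median-of-ratios and quantile scaling, a replicate block, fits of the 2 groups alone, no trend, and leaving out each library.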

Additional observations from a re-analysis of the deposited data

How the results depend on the processing

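All 6 fold changes of Sod1 and Sod2 kept direction and call under each of the 18 alternatives run, except Sod1 in LPS versus control, which did not pass with median-of-ratios scaling (log2 fold change -0.12, limma adjusted p = 0.0538). There the transcripts called went from 2 to 1, while in extract versus LPS they went from 2 to 3 without LPS replicate 3. That scaling moved the share of lower genes among those called in LPS versus control from 76% to 51.7%. With each library left out in turn, Sod2 in LPS versus control ranged from 3.18 to 3.23, Sod1 from -0.26 to -0.17 and Cat from -0.33 to -0.14. Cat in LPS versus control passed without control replicate 3 (limma adjusted p = 0.0435). It also passed with the replicate number as a block (-0.25, limma adjusted p = 0.0391), and the cause was not tested. The block changed no other call of the 3 genes. The data do not settle whether the numbers pair the libraries. Deviations from the group means correlated at -0.055 to 0.095 for the same number and -0.11 to 0.089 for different numbers. Between LPS and extract, same-number pairs gave 0.023, 0.078 and 0.095, against -0.086 to 0.005 for different numbers. Between control and extract, same-number pairs gave -0.055, -0.002 and -0.034, against -0.026 to 0.051. Between control and LPS they gave 0.070, 0.029 and 0.025, against -0.11 to 0.089. Not every library correlated best with its own number. Counts of called genes in either direction stayed within 1.5 times, but the 1193 higher and 3769 lower genes of LPS versus control became 2117 and 2264 by the median of ratios and 1940 and 2402 by quantiles. The gene list alternatives were not run. TPM without depth sets no detection limit.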

Other observations

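Within groups, the genes did not vary together in 1 way. Among LPS libraries, replicate 2 had the highest Sod2 (699.8 TPM) and Cat (99.5 TPM) and the lowest Sod1 (274.4 TPM). Among extract libraries, replicate 1 had the highest Sod2 (463.1 TPM) and Sod1 (413.5 TPM), while Cat was highest in replicate 2 (100.5 TPM). With 3 libraries a group these orders are values without a test.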
